A study of Mus musculus with 12 samples.

Results

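Glycolysis enzymes and targets of the hypoxia-inducible factor (HIF) were examined in the mouse dendritic line DC2.4, labelled as wild type, after exposure to extracellular vesicles from T cells. The set holds 37 genes, chosen by name: 20 for glucose uptake, glycolysis and lactate export, 3 of oxygen sensing, and 14 HIF targets outside glycolysis. All 37 were found among 42687 gene identifiers, and 36 passed the filter on low counts that left 13261 genes; the glucose transporter gene Slc2a3 did not, with 3 to 14 counts per library. Gene expression was measured by mRNA sequencing in 12 libraries, 3 for each of 4 groups. The controls were given phosphate-buffered saline (PBS), another group 15 µg/mL of vesicles of activated T cells (ATEV), another 30 µg/mL of vesicles of non-activated T cells (NTEV), and the last 15 µg/mL of ATEV pretreated with Baseline-ZERO DNase, an enzyme that degrades DNA (DNase-treated ATEV). The vesicle dose therefore differed between ATEV and NTEV, and the labels note 5 µg/mL of vesicle DNA beside the NTEV dose. Cells were plated at equal density, collected the next day and plated again, with 3 repeats of this procedure; the labels leave unclear whether these were rounds on the same cells or separate experiments, and p-values measure only the spread between these libraries.

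Glycolysis turns glucose into pyruvate, which lactate dehydrogenase reduces to lactate so that the pathway can run on without oxygen. HIF-1, made of HIF-1α and its partner ARNT, activates most genes of this pathway together with genes for mitophagy, collagen hydroxylation, angiogenesis and pH control. The prolyl hydroxylases encoded by Egln1 and Egln3 mark HIF-1α for degradation when oxygen is present, and both are themselves HIF targets, so the pathway holds a feedback loop. HIF-1α is controlled mainly through the stability of its protein, which mRNA counts do not report. Dendritic cells raise glycolysis when they are activated.

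HIF binds DNA at a short core of letters, ACGTG or GCGTG. Both strands were searched in the 250 bases before each RefSeq transcript start (build GRCm38.p6); ACGTG overlaps its own reverse complement CACGT where the letters read CACGTG, and CACGC is the reverse complement of GCGTG. Of the 37 genes, 34 had a promoter in that table, and 32 of 34 (94.1%) held a match before at least 1 start, against 5811 of 9358 tested genes (62.1%) and 11226 of all 27025 genes of the table (41.5%). Of the promoter windows of the table, 12679 of 32851 (38.6%) held a match. ACGTG alone, on either strand, stood in 21 of 34 members (61.8%) and 2399 of 9358 tested genes (25.6%). Members had 1.53 windows on average against 1.28 for tested genes and a median GC content of 62.2% against 59.6%. Many members were listed because they are known HIF targets, so these shares are a description, and a match of letters is not a binding site. The 160 bases nearest the start are shown for 6 genes called in a comparison and for Ldha, which passed no test in the fit of all 12 libraries but held the letters more than once, 5′ to 3′ on the strand of the gene, with the matches in capitals:
Hk2 chr6:82774455-82774614 (minus strand): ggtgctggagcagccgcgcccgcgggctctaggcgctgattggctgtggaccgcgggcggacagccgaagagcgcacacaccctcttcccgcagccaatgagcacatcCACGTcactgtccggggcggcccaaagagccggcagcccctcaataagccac
Ldha chr7:46845644-46845803 (plus strand): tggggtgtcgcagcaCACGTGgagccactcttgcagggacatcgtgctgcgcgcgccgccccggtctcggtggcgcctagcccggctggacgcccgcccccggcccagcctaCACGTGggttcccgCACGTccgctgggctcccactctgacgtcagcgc
Egln1 chr8:124949255-124949414 (minus strand): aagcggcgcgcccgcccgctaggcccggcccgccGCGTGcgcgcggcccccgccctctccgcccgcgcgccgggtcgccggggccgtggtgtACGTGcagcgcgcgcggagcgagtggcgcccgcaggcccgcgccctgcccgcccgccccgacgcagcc
Pdk1 chr2:71873064-71873223 (plus strand): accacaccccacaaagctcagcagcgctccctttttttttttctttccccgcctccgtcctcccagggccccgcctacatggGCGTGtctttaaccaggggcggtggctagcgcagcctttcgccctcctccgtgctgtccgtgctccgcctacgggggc
Bnip3 chr7:138909507-138909666 (minus strand): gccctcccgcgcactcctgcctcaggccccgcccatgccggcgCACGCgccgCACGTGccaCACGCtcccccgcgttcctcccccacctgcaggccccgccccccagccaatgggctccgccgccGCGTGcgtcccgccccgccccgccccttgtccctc
Adm chr7:110627497-110627656 (plus strand): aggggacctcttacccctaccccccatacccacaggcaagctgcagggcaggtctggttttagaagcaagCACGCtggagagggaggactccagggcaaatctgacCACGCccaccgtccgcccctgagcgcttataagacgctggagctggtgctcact
Ankrd37 chr8:45999851-46000010 (minus strand): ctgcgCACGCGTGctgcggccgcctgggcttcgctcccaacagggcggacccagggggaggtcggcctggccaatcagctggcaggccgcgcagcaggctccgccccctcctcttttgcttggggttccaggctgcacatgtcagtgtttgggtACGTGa
The window of Ldha, for lactate dehydrogenase A, lies before the more upstream of its starts in the table and holds CACGTG at 2 places. The window before the other Ldha start holds 1 match (CACGC) and no CACGTG. The bases just after each start were looked for in GENCODE transcripts of the gene. They were not found for the Ldha, Egln1 and Adm windows shown, and were found for the other Ldha start. Finding such bases does not show that GENCODE lists the start. The Bnip3 window holds CACGTG once, and in Ankrd37 the letters CACGCGTG carry a match on each strand. Of the other called genes, Ndrg1 and Bnip3l had no promoter in that table, and Kdm3a and Mxi1 are not shown. Kdm3a had a window with 1 match and further windows with 0 matches. Mxi1 had a window with 0 matches and further windows with 1 match each. Pdk1 had a further window, not shown, with 0 matches. Calls and tests named here are those of the main edgeR fit described below.

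Compared with PBS, mRNA of most of these genes was lower after ATEV and after NTEV, and by the median the cells that received DNase-treated ATEV lay closer to PBS. The fold change was negative in 32 of 36 genes for ATEV, 31 for NTEV and 32 for DNase-treated ATEV. The median log2 fold change over the 19 tested glycolysis genes was -0.57 for ATEV, -0.40 for NTEV and -0.24 for DNase-treated ATEV. Over the 14 HIF targets outside glycolysis it was -0.67, -0.85 and -0.21. Over all 13261 tested genes it was 0.03, -0.00 and 0.00. At an adjusted p under 0.05 (edgeR quasi-likelihood test), 6 of 36 members fell with ATEV, where 1.42% of all tested genes did, and 8 of 36 fell with NTEV, where 0.611% did. DESeq2 called 14 of the members lower for ATEV (5.18% of all genes) and 12 for NTEV (2.0%). By role, these included 6 of 19 glycolysis genes and 6 of 14 HIF targets for ATEV, and 1 and 9 for NTEV. Without the filter on low counts edgeR called 16 for ATEV (1.70%) and 16 for NTEV (0.844%). No member rose with either in edgeR, at an adjusted or an unadjusted p under 0.05 or in DESeq2, while 3.32% of all tested genes rose with ATEV and 1.70% with NTEV at the adjusted threshold. With DNase-treated ATEV edgeR called 0 members and 0% of all genes. The 3 comparisons share the PBS libraries, so their likeness is not independent evidence.

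**Figure D1:**
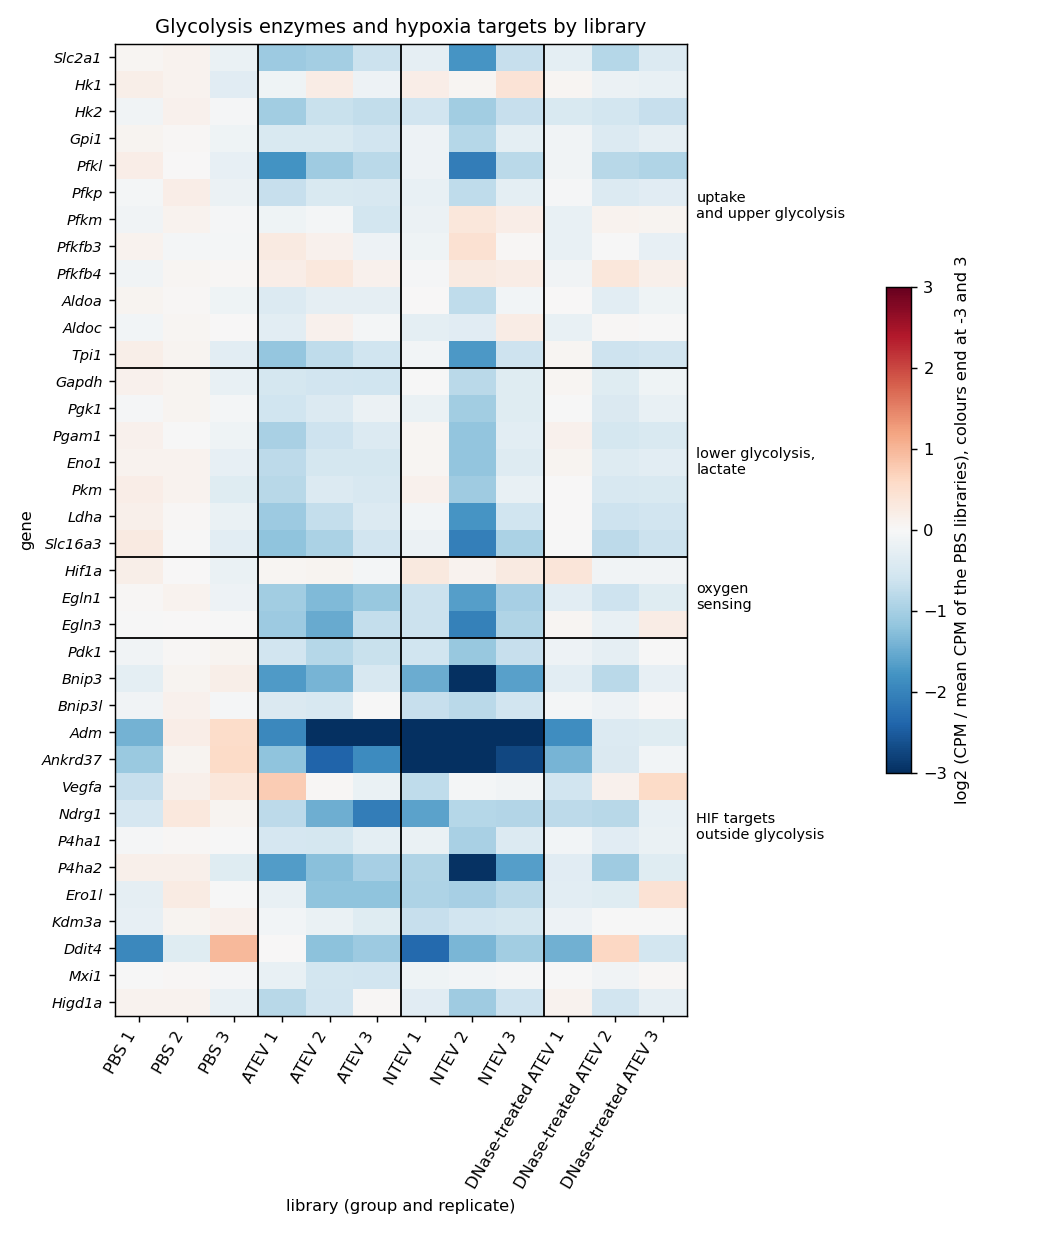
Heat map of the 36 tested genes (rows, grouped by role) in the 12 libraries (columns), coloured by log2 of the level, in CPM (counts per 1e6 counts after scaling), over the mean of the 3 PBS libraries; the colours end at -3 and 3. Most rows are blue in the ATEV and NTEV columns, Adm and Ankrd37 most deeply, while Hif1a, Hk1, Pfkfb3 and Pfkfb4 stay near white.

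Glucose enters the cell through the transporter GLUT1, encoded by Slc2a1, which made up 99.94 to 99.97% of the 2 glucose transporters' summed level per kb of exon in the PBS libraries. Levels here and below are CPM after scaling of library sizes, for replicates 1, 2 and 3 in that order. Slc2a1 stood at 396, 411 and 333 CPM in PBS, 179, 189 and 241 in ATEV, 316, 111 and 236 in NTEV and 312, 208 and 284 in DNase-treated ATEV. Every vesicle-treated library lay under the lowest PBS library. The log2 fold change against PBS was -0.91 ± 0.29 (SE) for ATEV, with an adjusted p of 0.0844, and did not pass the test.

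Hexokinases trap glucose in the cell as glucose 6-phosphate; Hk2 is the inducible isoenzyme and Hk1 the housekeeping form. Hk2 read 181, 213 and 192 CPM in PBS, 95.2, 124 and 118 in ATEV, 131, 94.2 and 120.1 in NTEV and 142, 133 and 122 in DNase-treated ATEV. All 9 vesicle-treated libraries were under all 3 PBS libraries. Hk2 fell with ATEV (log2 fold change -0.80 ± 0.14, adjusted p = 0.00836) and with NTEV (-0.77 ± 0.14, adjusted p = 0.0185). For DNase-treated ATEV the value was -0.56 ± 0.14, with an unadjusted p of 0.00173 and an adjusted p of 0.451. Hk1, in contrast, overlapped between PBS and each vesicle group, at 189.8, 179 and 131 CPM in PBS and 153, 195 and 150.4 in ATEV. Its log2 fold change for ATEV was -0.01 ± 0.16.

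The makeup of the hexokinase pair also differed between groups. Per kb of exon, Hk2 made up 62.8 ± 4.95% (SD, n = 3) of the summed Hk1 and Hk2 level in PBS. Its share was 49.2 ± 3.16% in ATEV, 45.5 ± 3.27% in NTEV and 55.0 ± 1.34% in DNase-treated ATEV. The libraries ran from 57.7 to 67.6% in PBS, from 53.7 to 56.4% in DNase-treated ATEV, from 47.2 to 52.8% in ATEV and from 43.5 to 49.3% in NTEV. PBS, DNase-treated ATEV and ATEV thus did not overlap, and ATEV overlapped with NTEV. These shares were not tested, and they leave out Hk3, a further hexokinase gene outside the set. Hk3 averaged 155 CPM in PBS, 253 in ATEV, 256 in NTEV and 191 in DNase-treated ATEV, so the shares are not those of all hexokinases.

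Phosphofructokinase commits sugar to glycolysis, and Pfkl, Pfkp and Pfkm encode its liver, platelet and muscle subunits. Pfkl, the subunit with the highest level per kb in PBS, stood at 521, 457 and 381 CPM in PBS, 132, 216 and 259 in ATEV, 407, 107 and 257 in NTEV and 422, 256 and 242 in DNase-treated ATEV. The ATEV libraries lay under PBS without overlap, whereas NTEV 1 and DNase-treated ATEV 1 lay within the PBS range. The log2 fold change was -1.16 ± 0.39 for ATEV (adjusted p = 0.0933) and -0.82 ± 0.39 for NTEV (adjusted p = 0.269), neither past the threshold. Pfkm had fold changes of -0.23 ± 0.16 and 0.13 ± 0.16 on the log2 scale. The share of Pfkl in the 3 subunits' summed level per kb was 67.3 ± 3.72% in PBS, 53.3 ± 9.66% in ATEV, 51.9 ± 17.4% in NTEV and 59.2 ± 7.66% in DNase-treated ATEV. In NTEV 2 it was 33.6%, the lowest of the 12 libraries.

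**Figure D2:**
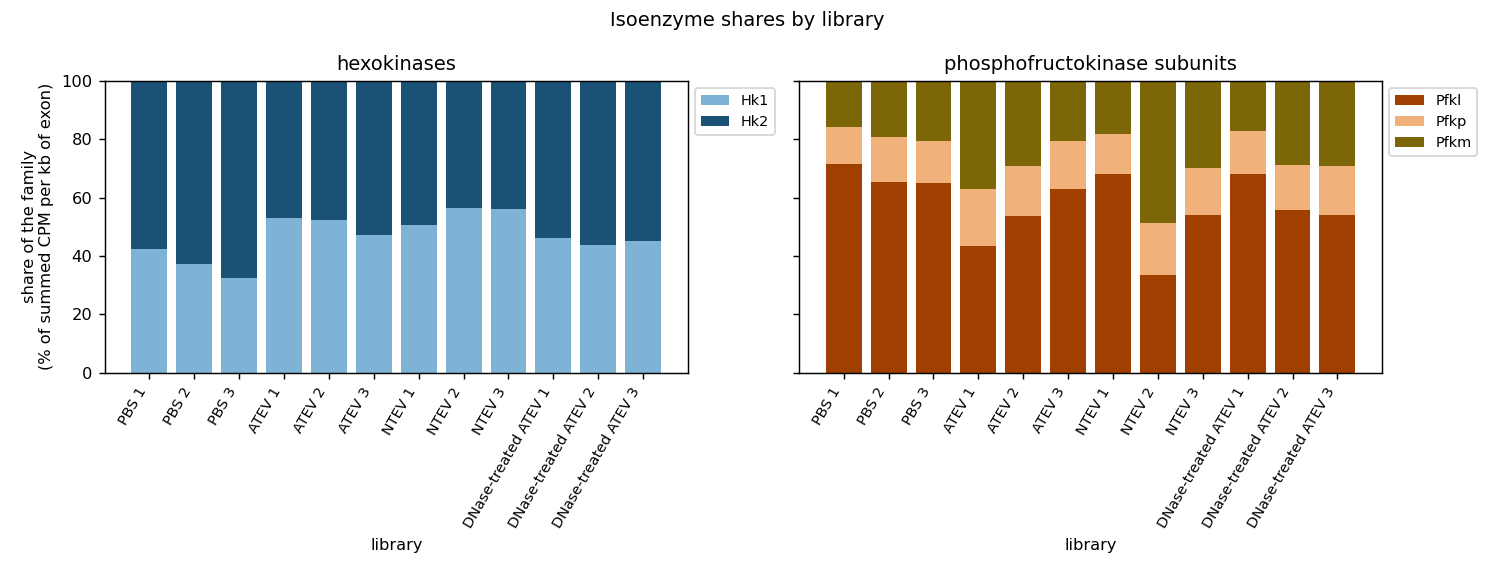
Share of each isoenzyme in the summed CPM per kb of exon (percent, stacked bars from 0 to 100) in each library. The left panel holds the hexokinase genes Hk1 and Hk2, without Hk3, and the right panel the phosphofructokinase subunits. The Hk2 bar is largest in PBS (57.7 to 67.6%) and smallest in NTEV (43.5 to 49.3%), and the Pfkl bar is smallest in NTEV 2 (33.6%).

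Pfkfb3 and Pfkfb4, which make the phosphofructokinase activator fructose 2,6-bisphosphate, gave log2 fold changes for ATEV of 0.10 ± 0.16 and 0.22 ± 0.14, and neither passed the test in any comparison. The other genes of upper glycolysis are Gpi1 (glucose 6-phosphate isomerase), Aldoa and Aldoc (aldolases) and Tpi1 (triosephosphate isomerase). Tpi1 stood at 1461, 1366 and 1035 CPM in PBS, 572, 763 and 845 in ATEV, 1209, 390.1 and 842 in NTEV and 1329.9, 841 and 864 in DNase-treated ATEV. The lowest library was NTEV 2 and the ATEV libraries lay under PBS. Its log2 fold change was -0.82 ± 0.33 for ATEV (adjusted p = 0.133). For ATEV the values of Gpi1, Aldoa and Aldoc were -0.50, -0.31 and -0.07, none past the threshold.

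In PBS the highest levels per kb of exon were those of Aldoa of upper glycolysis (1022 CPM per kb), Gapdh (991), Ldha (976) and Pkm (831), and the lowest tested was P4ha2 (2.01). Gapdh encodes glyceraldehyde 3-phosphate dehydrogenase, Pgk1 phosphoglycerate kinase, Pgam1 phosphoglycerate mutase, Eno1 enolase and Pkm pyruvate kinase. None of the 7 genes of lower glycolysis and lactate export passed the test in any of the 5 comparisons in the main edgeR fit. DESeq2 called 1 of them lower for ATEV, where it called 5.18% of all genes lower. All 7 had negative fold changes against PBS in each vesicle group. For ATEV the log2 fold changes ran from -0.89 (Slc16a3) to -0.38 (Pgk1), with a median of -0.61. In all 7 the ATEV libraries lay under the PBS libraries without overlap, as they did for 16.8% of all tested genes.

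Gapdh, often used as a reference gene, stood at 4452, 4329 and 3507 CPM in PBS, 2828, 2736 and 2723 in ATEV, 4064, 2323 and 3205 in NTEV and 4279.8, 3192 and 3757 in DNase-treated ATEV. The ATEV libraries sat close together under all PBS libraries; its log2 fold change for ATEV was -0.57 ± 0.19 (adjusted p = 0.0974). Ldha read 3577, 3323 and 2795 CPM in PBS, 1526, 1954 and 2438 in ATEV, 3032, 946 and 2122 in NTEV and 3257, 2105 and 2169 in DNase-treated ATEV. NTEV 2 was the lowest library and NTEV 1 lay within the PBS range. The log2 fold change of Ldha was -0.71 ± 0.33 for ATEV (adjusted p = 0.186) and -0.67 ± 0.33 for NTEV (adjusted p = 0.288).

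Slc16a3 encodes the lactate exporter MCT4. It stood at 645, 531 and 433 CPM in PBS, 232, 277 and 359 in ATEV, 477, 129 and 276 in NTEV and 536, 313 and 345 in DNase-treated ATEV. The order of libraries was like that of Ldha, with NTEV 2 lowest. The log2 fold changes were -0.89 ± 0.36 for ATEV (adjusted p = 0.145) and -0.87 ± 0.36 for NTEV (adjusted p = 0.215). Processed copies of Gapdh, Ldha, Pgam1, Pgk1, Aldoa and Eno1 share sequence with them, so the split of reads is uncertain. Copies were looked up from a short list of names, which need not hold all of them. On that list Pgam1-ps2 and Eno1b had the most counts and reached at most 9.31 and 8.31 CPM.

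The 3 oxygen-sensing genes did not move as a unit. Hif1a, which encodes HIF-1α, stood at 155, 139.8 and 120.4 CPM in PBS, 145, 147 and 133 in ATEV, 171, 148 and 168 in NTEV and 177, 129 and 129 in DNase-treated ATEV. The groups overlapped, and the log2 fold changes were 0.03 ± 0.14 for ATEV and 0.23 ± 0.14 for NTEV (adjusted p = 0.908 and 0.406). Its 95% interval for ATEV ran from -0.28 to 0.34.

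Egln1, for the main prolyl hydroxylase that acts on HIF-1α, read 156, 163 and 138 CPM in PBS, 73.3, 61.1 and 69.6 in ATEV, 96.8, 48.7 and 76.5 in NTEV and 122, 98.8 and 119 in DNase-treated ATEV. The 3 groups PBS, DNase-treated ATEV and ATEV did not overlap, with DNase-treated ATEV in between. Egln1 fell with ATEV (log2 fold change -1.16 ± 0.20, adjusted p = 0.00549) to 44.7% of PBS and with NTEV (-1.04 ± 0.20, adjusted p = 0.0191). DNase-treated ATEV gave -0.43 ± 0.20 (unadjusted p = 0.0482, adjusted p = 0.824).

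Egln3, for a second prolyl hydroxylase, had 3.57 CPM per kb of exon in PBS against 42.3 for Egln1. It stood at 9.39, 9.62 and 9.48 CPM in PBS, 4.48, 3.34 and 5.78 in ATEV, 6.11, 2.32 and 5.07 in NTEV and 9.82, 8.14 and 11.1 in DNase-treated ATEV. The 3 PBS libraries were nearly equal, and the ATEV and NTEV libraries all lay under them and under DNase-treated ATEV. The log2 fold changes of -1.07 ± 0.30 for ATEV and -1.07 ± 0.30 for NTEV missed the threshold (adjusted p = 0.0571 and 0.0805).

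**Figure D3:**
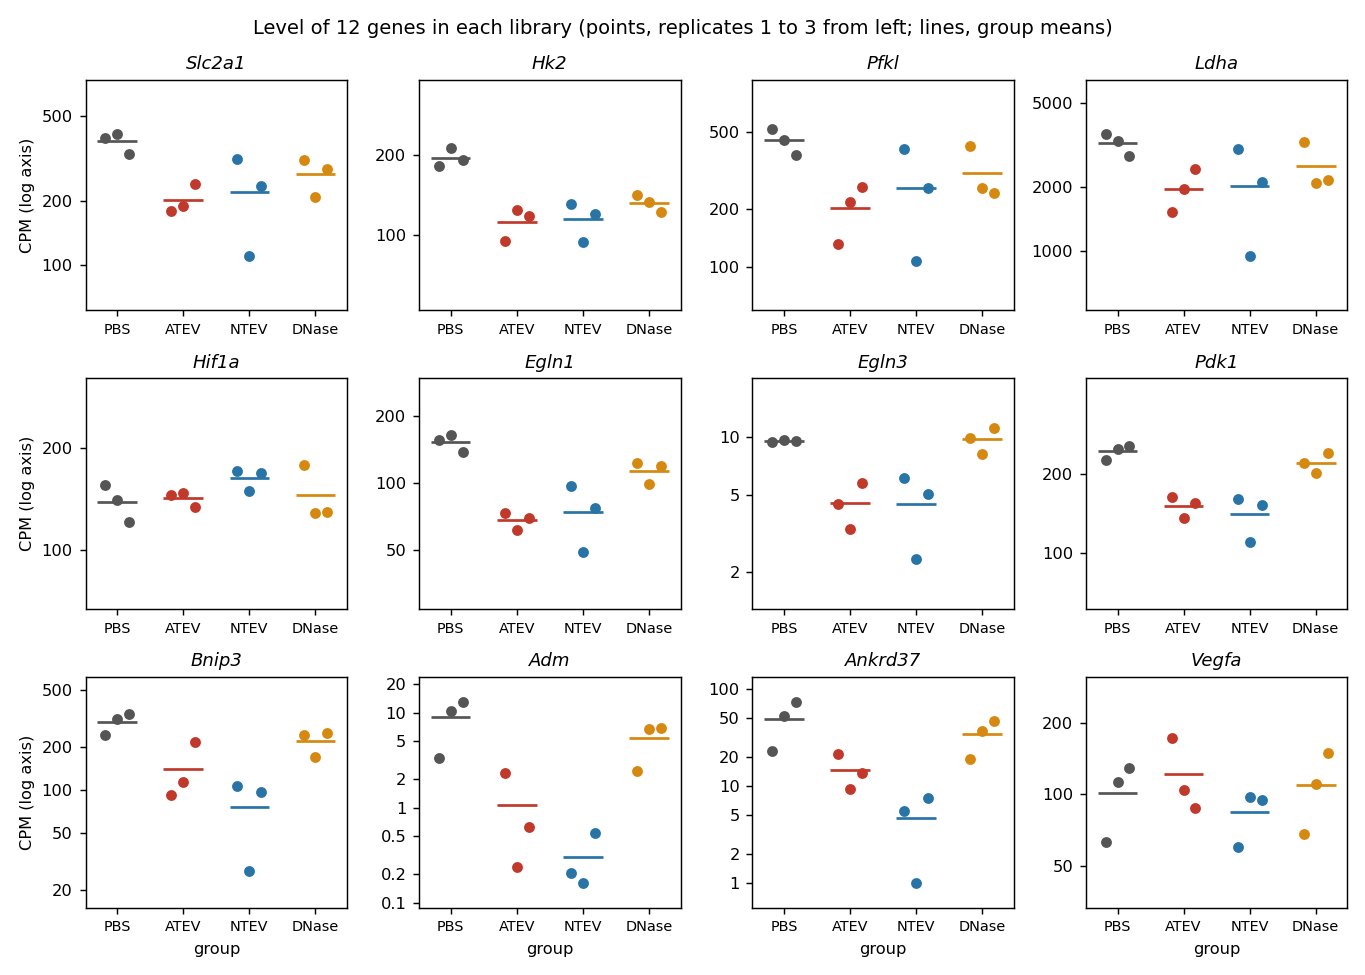
Level of 12 genes in CPM (log axis) in each library, replicates 1 to 3 from left to right within a group, with lines at group means; "DNase" stands for DNase-treated ATEV. The ATEV and NTEV points lie under PBS for Hk2, Egln1, Egln3, Pdk1, Bnip3, Adm and Ankrd37, the Hif1a and Vegfa groups overlap, and NTEV 2 lies far under NTEV 1 for Slc2a1, Pfkl and Ldha.

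Among HIF targets outside glycolysis, 4 of 14 fell with ATEV (Pdk1, Adm, Ndrg1 and Mxi1), where 1.42% of all tested genes did. With NTEV 6 of 14 fell (Pdk1, Bnip3, Bnip3l, Adm, Ankrd37 and Kdm3a), where 0.611% of all tested genes did. Pdk1 encodes a kinase that shuts off pyruvate dehydrogenase and so keeps pyruvate out of the mitochondrion. It read 226, 249 and 256 CPM in PBS, 162, 135 and 154 in ATEV, 159.97, 109.9 and 151 in NTEV and 219.6, 201 and 239.6 in DNase-treated ATEV. The ATEV and NTEV libraries lay under every PBS and DNase-treated ATEV library. The log2 fold change was -0.69 ± 0.15 for ATEV (adjusted p = 0.0195) and -0.79 ± 0.15 for NTEV (adjusted p = 0.0169).

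Bnip3 and Bnip3l encode receptors on mitochondria that direct them to mitophagy. Bnip3 stood at 241, 313 and 339 CPM in PBS, 91.9, 114 and 214 in ATEV, 106, 27.03 and 95.6 in NTEV and 239, 169.5 and 250.1 in DNase-treated ATEV. Both ATEV and NTEV lay under PBS without overlap, and NTEV 2 was lowest. Bnip3 fell with NTEV (log2 fold change -1.96 ± 0.42, adjusted p = 0.0315) to 25.6% of PBS, while ATEV gave -1.09 ± 0.41 (adjusted p = 0.123). Bnip3l also fell with NTEV, from 133, 158 and 140.01 CPM to 88.9, 82.00 and 95.9 (log2 fold change -0.69 ± 0.14, adjusted p = 0.0221). Its ATEV libraries, at 106, 104 and 142 CPM, overlapped with PBS.

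Adm, which encodes the vasodilator peptide adrenomedullin, was scarce and had the largest estimated fold changes of the 36 genes against PBS in all 3 vesicle groups. It stood at 3.36, 10.3 and 13.1 CPM in PBS, 2.32, 0.239 and 0.636 in ATEV, 0.207, 0.160 and 0.547 in NTEV and 2.46, 6.77 and 6.93 in DNase-treated ATEV. These levels rest on 609 counts over the PBS libraries, 71 over ATEV, 21 over NTEV and 360 over DNase-treated ATEV. Each ATEV and NTEV library lay under every PBS library, and PBS 1 lay well under the other PBS libraries. Adm fell with ATEV (log2 fold change -3.03 ± 0.69, adjusted p = 0.0272) and with NTEV (-4.92 ± 0.80, adjusted p = 0.0116, 95% interval -6.64 to -3.20). Among all 13261 tested genes its estimated fall with NTEV ranked 1 by size, and with ATEV 4; at so few counts the estimate is imprecise.

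Ankrd37, a small ankyrin-repeat protein gene known as a strong HIF target, read 22.7, 52.4 and 73.04 CPM in PBS, 21.4, 9.36 and 13.4 in ATEV, 5.56, 1.00 and 7.46 in NTEV and 18.8, 36.6 and 46.4 in DNase-treated ATEV. NTEV was lower than every other group without overlap. Ankrd37 fell with NTEV (log2 fold change -3.41 ± 0.60, adjusted p = 0.0152), and its fall ranked 9 by size among all tested genes. For ATEV the value was -1.74 ± 0.56 (adjusted p = 0.0844). As with Adm, PBS 1 was the lowest PBS library.

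Ndrg1, for a stress-responsive protein that slows growth and spread of tumour cells, stood at 213, 370.1 and 315 CPM in PBS, 174, 109 and 71.5 in ATEV, 98.2, 164 and 162 in NTEV and 174, 169 and 256 in DNase-treated ATEV. The ATEV and NTEV libraries were all under PBS. Ndrg1 fell with ATEV (log2 fold change -1.34 ± 0.31, adjusted p = 0.0307); NTEV gave -1.08 ± 0.31 (adjusted p = 0.0913). Mxi1, for a repressor that competes with MYC for its partner MAX, was lower only slightly in ATEV, at 174, 178 and 171 CPM in PBS and 149, 118 and 117 in ATEV. Its spread was small, and it fell with ATEV (log2 fold change -0.45 ± 0.11, adjusted p = 0.0455), whereas NTEV, at 160.4, 164 and 169 CPM, gave -0.08 ± 0.11 (adjusted p = 0.715).

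Kdm3a, for a histone H3 lysine 9 demethylase, read 65.8, 82.3 and 84.4 CPM in PBS, 73.2, 67.5 and 60.4 in ATEV, 48.2, 51.9 and 54.1 in NTEV and 69.3, 77.5 and 76.3 in DNase-treated ATEV. NTEV was the lowest group, with no overlap with any other, and Kdm3a fell with NTEV (log2 fold change -0.59 ± 0.12, adjusted p = 0.0281). P4ha1 and P4ha2 encode the catalytic subunits of collagen prolyl 4-hydroxylase. P4ha2 stood at 13.9, 13.99 and 9.82 CPM in PBS, 3.92, 5.25 and 6.31 in ATEV, 6.73, 1.60 and 4.03 in NTEV and 9.97, 6.01 and 9.72 in DNase-treated ATEV. All ATEV and NTEV libraries lay under PBS, and the log2 fold change for NTEV was -1.60 ± 0.39 with an adjusted p of 0.0506, just above the threshold. P4ha1 gave -0.44 ± 0.16 for ATEV and -0.50 ± 0.16 for NTEV.

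The remaining HIF targets did not pass the test in the main edgeR fit of all 12 libraries. Vegfa, the angiogenic growth factor and a classic HIF target, stood at 62.8, 113 and 129 CPM in PBS, 173, 104 and 87.8 in ATEV, 59.97, 97.6 and 94.8 in NTEV and 67.8, 110.4 and 149.7 in DNase-treated ATEV. Its groups overlapped, with the highest level in ATEV 1. The log2 fold changes of Vegfa were 0.26 ± 0.33 for ATEV and -0.27 ± 0.33 for NTEV. Ddit4, an inhibitor of the growth kinase mTORC1, varied widely among the controls, with 17.9, 53.7 and 135 CPM in PBS, and gave -0.65 ± 0.63 for ATEV. Ero1l, an oxidase of protein folding in the endoplasmic reticulum, gave -0.80 ± 0.27 for ATEV and -0.91 ± 0.27 for NTEV (adjusted p = 0.0966 and 0.102). Without ATEV 1, Ero1l was called for ATEV in edgeR (adjusted p = 0.0117), and DESeq2 called it for ATEV and for NTEV. Higd1a, a mitochondrial protein, gave -0.41 ± 0.24 and -0.65 ± 0.24.

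**Figure D4:**
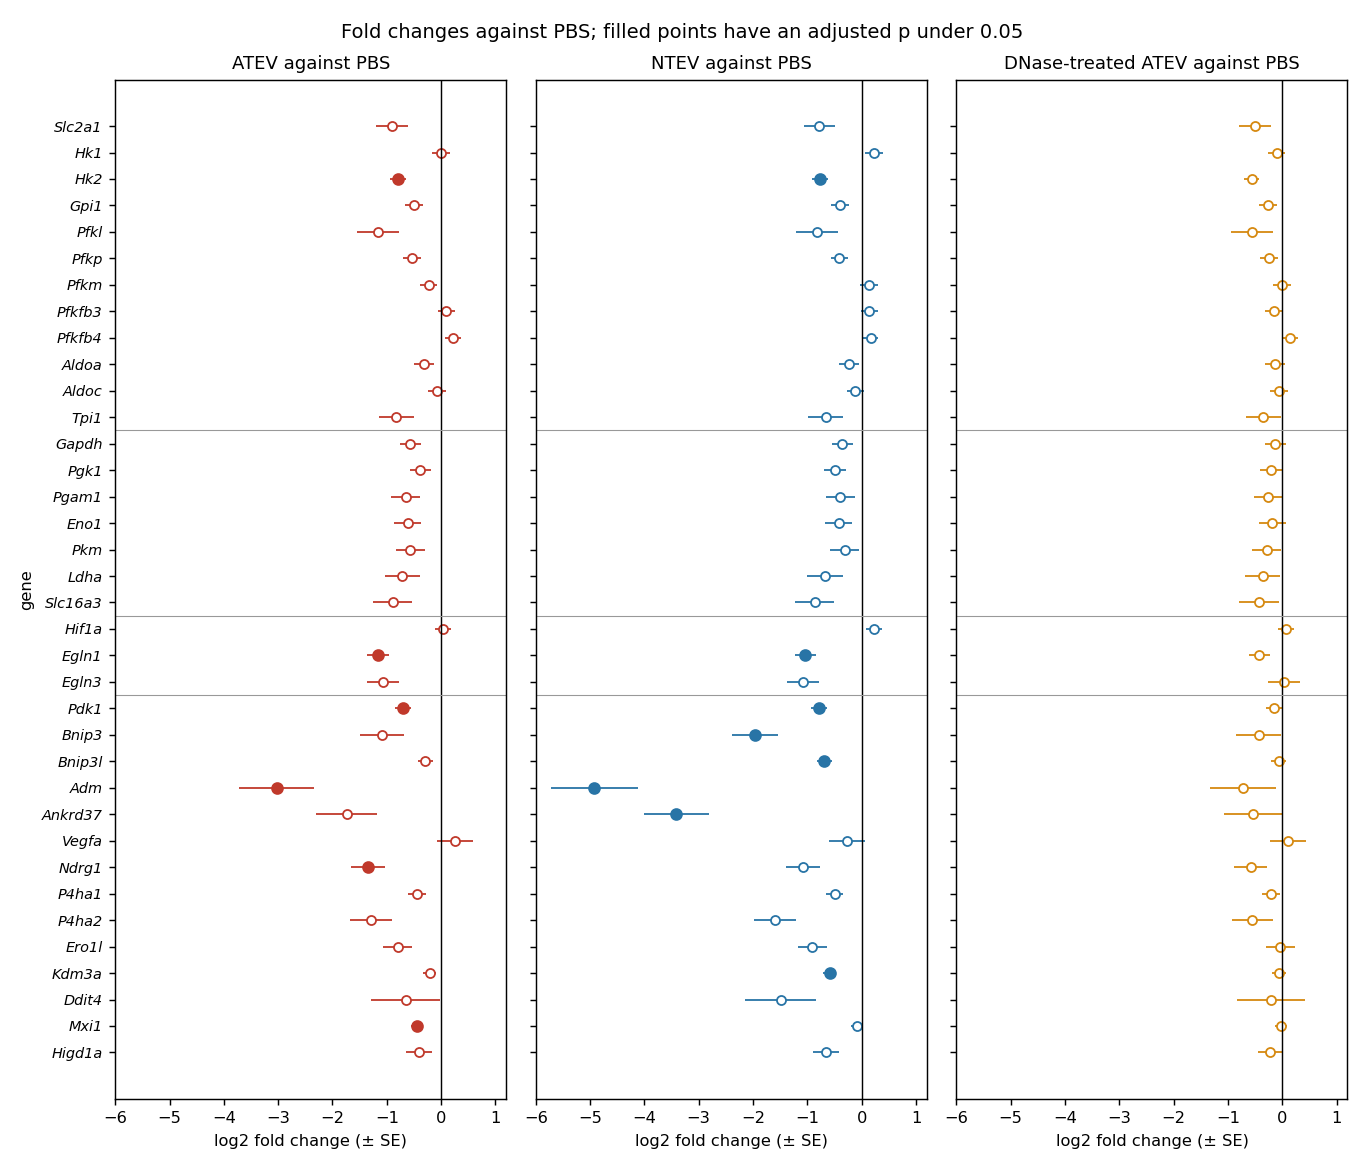
Log2 fold change (points) ± SE (bars) of the 36 tested genes against PBS for ATEV (left), NTEV (middle) and DNase-treated ATEV (right); filled points have an adjusted p under 0.05. The left panel has 6 filled points, the middle 8 and the right 0, all filled points lie below 0, and Adm lies farthest from 0.

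How far these calls rest on single libraries was checked by leaving out each of the 6 libraries compared in turn. For ATEV, Egln1 stayed past the threshold in all 6 fits. Hk2 lost it without PBS 2 (adjusted p = 0.0560), Pdk1 without PBS 2, PBS 3, ATEV 2 or ATEV 3 (adjusted p from 0.0574 to 0.102), Adm without PBS 2, PBS 3, ATEV 2 or ATEV 3 (adjusted p from 0.0684 to 0.106), Ndrg1 without PBS 2, PBS 3, ATEV 2 or ATEV 3 (adjusted p from 0.0667 to 0.129) and Mxi1 without PBS 1, PBS 2, PBS 3, ATEV 2 or ATEV 3 (adjusted p from 0.0784 to 0.173). The number of members called ranged from 1 without PBS 2 (0.140% of all genes called lower) to 7 without ATEV 1 (1.62%). For NTEV, Adm stayed past the threshold in all 6 fits. Ankrd37 lost it without PBS 2 or PBS 3 (adjusted p from 0.0513 to 0.0650), Hk2 without PBS 2, PBS 3, NTEV 2 or NTEV 3 (adjusted p from 0.0642 to 0.0944), Egln1 without PBS 1, PBS 2, PBS 3 or NTEV 3 (adjusted p from 0.0572 to 0.0883) and Pdk1 without PBS 2, PBS 3, NTEV 2 or NTEV 3 (adjusted p from 0.0532 to 0.0793). Bnip3 lost it without PBS 1, PBS 2, PBS 3 or NTEV 3 (adjusted p from 0.0572 to 0.112), Bnip3l without PBS 1, PBS 2, PBS 3, NTEV 2 or NTEV 3 (adjusted p from 0.0506 to 0.111) and Kdm3a without PBS 2, PBS 3, NTEV 2 or NTEV 3 (adjusted p from 0.0678 to 0.116). The number of members called for NTEV ranged from 1 without PBS 2 (0.140% of all genes called lower) or without PBS 3 (0.111%) to 16 without NTEV 1 (4.57%). It was 4 without NTEV 2 (0.193%), 2 without NTEV 3 (0.104%) and 5 without PBS 1 (0.319%). With the fit limited to the 6 libraries of PBS and NTEV it was also 1 (0.0627%), against 17 when the fit was limited to those of PBS and ATEV (4.04%).

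The NTEV libraries lay further apart in glycolysis than in the other HIF targets. The median level of the 19 glycolysis genes, as a percentage of the PBS mean, was 90.7% in NTEV 1, 48.8% in NTEV 2 and 80.6% in NTEV 3. For the 14 HIF targets it was 56.3%, 49.0% and 59.6%. NTEV 1 thus stood near the controls for glycolysis, with 8 of 19 genes under the lowest PBS library, but had all 14 HIF targets under it. NTEV 2 was the lowest of the 12 libraries for 15 of 19 glycolysis genes. Shares over all tested genes were not taken for these counts by library, so they describe the members alone. Over all tested genes, NTEV 1 and NTEV 2 were also the replicates of a group that differed most. Leaving out NTEV 1 brought Slc2a1, Pfkl, Tpi1, Ldha and Slc16a3 past the threshold beside Hk2, so that 6 glycolysis genes and 8 HIF targets were called, where 4.57% of all genes were called lower.

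In ATEV the medians were 61.5%, 73.0% and 71.3% for glycolysis and 68.7%, 48.9% and 65.1% for HIF targets. DNase-treated ATEV had 98.8%, 75.3% and 80.8% for glycolysis, with replicate 1 near the controls, and 80.1%, 78.1% and 90.1% for HIF targets. The controls had 107%, 106% and 89.2% for glycolysis and 84.0%, 107% and 105% for HIF targets. PBS 1 was therefore the highest control for glycolysis and the lowest for HIF targets. For glycolysis, replicate 1 was also the highest library of NTEV and of DNase-treated ATEV, but the lowest of ATEV. Over all tested genes, deviations from group means correlated at 0.519 between PBS 1 and NTEV 1. For DNase-treated ATEV 1 the correlation was 0.440 with PBS 1 and 0.619 with NTEV 1. With ATEV 1 all were negative (-0.382 to -0.158). Whether libraries of replicate 1 share a state was not tested. Counted without overlap, 24 of 36 members had every ATEV library under every PBS library (16.8% of all tested genes did), as did 19 of 36 for NTEV (11.1% of all genes) and 4 of 36 for DNase-treated ATEV (5.68%). By role, these were 14 of 19 glycolysis genes and 8 of 14 HIF targets for ATEV, and 5 of 19 and 12 of 14 for NTEV. The difference between the roles was not tested.

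**Figure D5:**
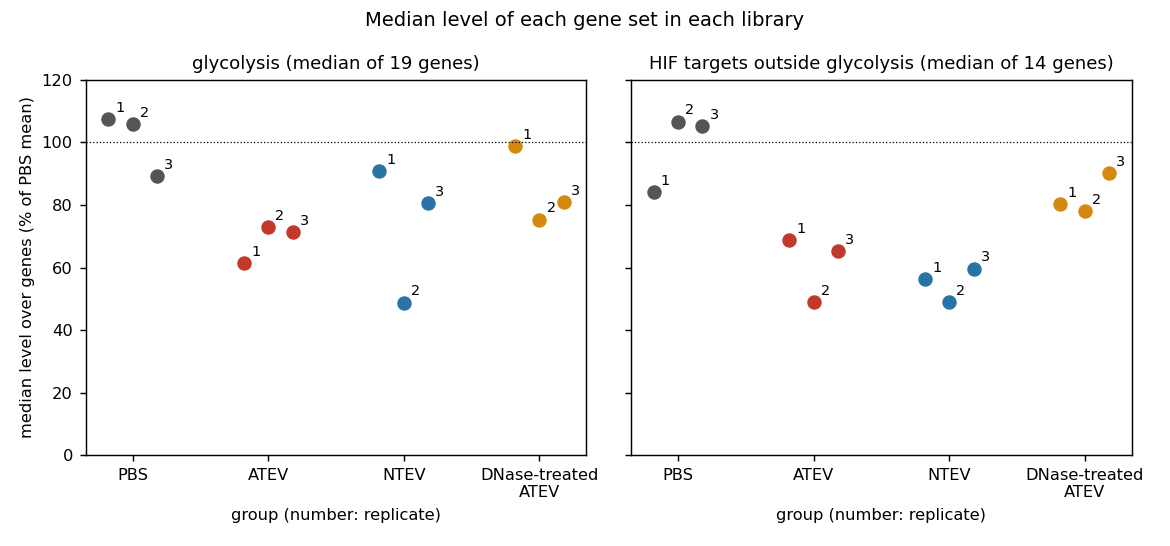
Median level over 19 glycolysis genes (left) and 14 HIF targets outside glycolysis (right) in each library, as a percentage of the mean of the PBS libraries (dotted line at 100); numbers beside the points are replicates. NTEV 1 lies near PBS on the left (90.7%) and with the other NTEV libraries on the right (56.3%), and NTEV 2 is lowest on the left (48.8%).

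DNase pretreatment of ATEV was included by the study to ask what the vesicles' DNA contributes. Against PBS, DNase-treated ATEV gave 2 of 36 members an unadjusted p under 0.05, Hk2 and Egln1, where 5.96% of all tested genes had one. Tested directly, ATEV against DNase-treated ATEV called 0 of 36 members at an adjusted p under 0.05 in edgeR, where 1.46% of all genes were called. At an unadjusted p under 0.05, 838 of all 13261 tested genes were lower and 1174 higher in ATEV than in DNase-treated ATEV (15.2% in either direction). Among the members, 9 of 36 were lower and 0 higher at that threshold. Those with the smallest p in edgeR were Pdk1 (log2 difference -0.55 ± 0.15, adjusted p = 0.0999), Egln1 (-0.74 ± 0.20, adjusted p = 0.1002), Mxi1 (-0.42 ± 0.11, adjusted p = 0.104) and Egln3 (-1.10 ± 0.30, adjusted p = 0.106). The other 5 were Adm (-2.30), Ero1l (-0.77), Ndrg1 (-0.76), Gapdh (-0.44) and Ankrd37 (-1.20). In 9 of 36 members every ATEV library lay under every DNase-treated ATEV library (10.0% of all genes). The median difference was -0.28 over glycolysis genes and -0.49 over HIF targets, against 0.00 over all genes. DESeq2 called 4 of the members lower in this comparison, where 1.03% of all genes were called lower. Without ATEV 1 edgeR called 3 lower (0.833% of all genes), namely Adm, Ero1l and Mxi1.

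ATEV and NTEV, given at different vesicle doses, were also compared directly. edgeR called 0 of 36 members, where 0.935% of all tested genes were called, and 6 of 36 had an unadjusted p under 0.05, where 13.4% of all genes did. Pfkm and Mxi1 were lower in ATEV (log2 differences -0.36 ± 0.16 and -0.36 ± 0.11), and Bnip3l, Kdm3a, Adm and Ankrd37 were higher (0.40 ± 0.14, 0.38 ± 0.12, 1.89 ± 0.87 and 1.67 ± 0.58). DESeq2 called 1 member lower in ATEV (0.814% of all genes), and so did edgeR without ATEV 1 (0.164%), where it was Mxi1. The median was -0.12 over glycolysis genes and 0.35 over HIF targets. An adjusted p that misses the threshold does not show that the vesicles act alike.

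Other genes of these pathways were read from lists chosen for their role. In edgeR 1.42% of all tested genes fell and 3.32% rose with ATEV, and 0.611% fell and 1.70% rose with NTEV. Of 33 further tested HIF targets, 7 fell and 1 rose with ATEV, among them Plod2, for a collagen lysyl hydroxylase (-1.11 ± 0.21 on the log2 scale, adjusted p = 0.00998), Stc2, for the secreted glycoprotein stanniocalcin (-0.75 ± 0.16, adjusted p = 0.0197), and Jmjd6 (-0.74 ± 0.16, adjusted p = 0.0217). With NTEV 4 fell and 1 rose, with Selenbp1 at -3.23 ± 0.54 (adjusted p = 0.0117), Stc2 at -0.86 ± 0.16 and Plod2 at -1.07 ± 0.21. The median of the 33 was -0.30 for ATEV, -0.26 for NTEV and -0.17 for DNase-treated ATEV.

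Further glycolysis genes moved in both directions. The shares of all tested genes that fell or rose, given with the further HIF targets, are the background for each list here. Of 13 further tested glycolysis genes, 2 rose with ATEV, the transporter gene Slc2a6 (0.54 ± 0.10, adjusted p = 0.0108) and the hexokinase gene Hk3 (0.71 ± 0.18, adjusted p = 0.0472), and Pgm1 for phosphoglucomutase fell (-0.72 ± 0.18, adjusted p = 0.0397). Slc2a6 was also higher in ATEV than in DNase-treated ATEV (0.69 ± 0.10, adjusted p = 0.00387), at 68.3 ± 2.67 CPM against 42.4 ± 1.24 (SD, n = 3). With NTEV 1 of the 13 fell, the enolase gene Eno3 (-1.002 ± 0.20, adjusted p = 0.0248). Of 12 genes for the fate of pyruvate, Mpc1, a subunit of the mitochondrial pyruvate carrier, rose with ATEV (0.88 ± 0.16, adjusted p = 0.00904) and the kinase gene Pdk3 fell (-0.69 ± 0.17, adjusted p = 0.0358). Of 16 further genes of HIF control, edgeR called 0 for ATEV (2 at an unadjusted p under 0.05, and 1 in DESeq2) and 1 for NTEV, Arnt2, for a partner of HIF-α subunits, which rose (1.60 ± 0.32, adjusted p = 0.0234).

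The summed level of 20 proliferation genes was 4386 to 5168 CPM in PBS, 2981 to 3952 in ATEV, 3161 to 4997 in NTEV and 3436 to 5029 in DNase-treated ATEV. NTEV 1 and DNase-treated ATEV 1, the libraries near PBS in glycolysis, were the highest of their groups, and NTEV 2 was the lowest of NTEV. The order differed elsewhere: DNase-treated ATEV 3 had the lowest sum of its group and DNase-treated ATEV 2 the lowest glycolysis median, and in ATEV the sum was highest in ATEV 3 and the glycolysis median in ATEV 2. Of the 20, 1 fell with ATEV in edgeR (1.42% of all tested genes did), and DESeq2 called 6 lower (5.18%). In 11 of 20 every ATEV library lay under every PBS library (16.8% of all tested genes). The fold change was negative in 19 of 20 for ATEV, and in 20 of 20 for NTEV and for DNase-treated ATEV. The median log2 fold change was -0.42 for ATEV, -0.23 for NTEV and -0.24 for DNase-treated ATEV. Summed macrophage markers (14 genes, 0 of them undetected) ran from 3588 to 4270 CPM in PBS, 5081 to 8847 in ATEV, 5450 to 5891 in NTEV and 3409 to 3822 in DNase-treated ATEV. The largest single marker averaged 1662 CPM in PBS and reached 5413 CPM. With ATEV 5 of 14 rose and 1 fell (3.32% and 1.42% of all tested genes). With NTEV 1 rose and 1 fell (1.70% and 0.611%), 7 of 14 fold changes were below 0, and the median log2 fold change was 0.07. The part of the proliferation genes or macrophage markers in the results was not tested. In such bulk samples fewer cells of a kind and less RNA per cell cannot be told apart.

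Of the dendritic cell markers, Itgax (CD11c) was present at 12.7 to 48.1 CPM, while Clec9a was at 0 in all 12 libraries and 7 of 16 markers passed the filter. The T cell genes Cd3e, Cd8a, Trbc1 and Trbc2 were at 0 in every library. The 18 T cell markers summed to 60.8 to 104 CPM in PBS and 37.4 to 65.7 CPM over the vesicle-treated libraries. Most of this sum in PBS was Cd28, which averaged 72.2 CPM there and ran from 26.6 to 94.6 CPM over all libraries. Lck ran from 6.85 to 18.5 CPM. Fibroblast markers summed to 3.51 to 9.28 CPM. Libraries held 19.4 to 30.4 M gene counts (1 M = 1e6). Replicates differed beyond counting noise, with chi-square values of 14.3 to 128 per degree of freedom, highest between NTEV 1 and NTEV 2.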

How the data were processed

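The deposited values are whole-number counts per Ensembl gene, 1 column per library; no scaling by the authors shows in them. Per the submitters' processing notes, the build was mm9 and the tools included TopHat2 2.0.11, Cufflinks 2.1.1 and bcl2fastq 2.19; per the labels' protocols the kit was TruSeq stranded mRNA. The read counter, annotation and strand setting are not given in the sources used here. Reads of overlapping or antisense genes may thus be shared. Symbols and exon lengths came from GENCODE M21, which matched 42250 of 42687 identifiers. Groups came from the treatment labels and replicate numbers from the titles.

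The counts went into edgeR 4.0.16 under R 4.3.3: filterByExpr (minimum count 10, minimum total 15), TMM scaling, and a quasi-likelihood F test (two-sided) of 5 contrasts in 1 fit of the 12 libraries (common biological coefficient of variation 0.183). P-values were adjusted by Benjamini-Hochberg over 13261 genes within a contrast; a gene was called at an adjusted p under 0.05, and only called genes are said to have risen or fallen. Levels are CPM after TMM scaling, and standard errors derive from the F statistic. DESeq2 1.42.0, limma 3.58.1 (voom), DESeq2's size factors, no filter, a stricter filter, a replicate block, fits of 6 libraries and leaving out each library were alternatives. The method was tested on simulated counts. Promoters are RefSeq's.

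The members, gene lists and tests were chosen with earlier results of these data known. All 37 members could be named; of other lists, called genes were, at most 3 per list and contrast by smallest adjusted p. The pentose phosphate (10 tested) and glucose-sensing (5 tested) lists had 0 called genes in each of the 5 contrasts in edgeR, with 0 to 2 genes of either list at an unadjusted p under 0.05 and 0 to 1 called by DESeq2.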

Additional observations from a re-analysis of the deposited data

How the results depend on the processing

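The medians of the glycolysis genes and of the other HIF targets moved by less than the spread between replicates under each of the 13 alternatives tried per comparison (7 other settings and 6 fits that leave out a library), and no result changed direction while called. Counts of calls moved more. For ATEV against PBS, members called numbered 14 in DESeq2, 16 with no filter and 17 in the fit of the 6 libraries compared, and all genes called went from 628 to 1538, 1317 and 1244. For NTEV against PBS, 12 members were called in DESeq2 (861 genes against 306), 16 with no filter (876) and 1 with 6 libraries (19). For ATEV against DNase-treated ATEV, members numbered 4 in DESeq2 (495 genes against 194), 5 with no filter (394) and 1 with 6 libraries. For ATEV against NTEV, 1 member was called in DESeq2 (373 genes against 124) and 1 with no filter (242), and 82 genes with 6 libraries. For DNase-treated ATEV against PBS no alternative called a member, and all genes called numbered 38 in DESeq2, 47 with no filter and 1 with at least 1 CPM in 3 libraries. Mxi1 in ATEV against PBS lost its call with no filter (adjusted p = 0.0876) and with 6 libraries (0.0603). The causes were not tested.

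Leaving out each replicate in turn gave 1 to 7 members called for ATEV against PBS (169 to 849 genes), 0 for DNase-treated ATEV (0 to 8 genes), 1 to 16 for NTEV (34 to 1685 genes), 0 to 3 for ATEV against DNase-treated ATEV (78 to 522 genes) and 0 to 1 for ATEV against NTEV (70 to 302 genes). Same-numbered libraries did not deviate together in every pair (correlations from -0.158 to -0.016 for ATEV and PBS, -0.058 to 0.440 for DNase-treated ATEV and PBS and 0.005 to 0.519 for NTEV and PBS), so the numbers were not taken to pair samples. NTEV and DNase-treated ATEV, which were not compared with each other, did deviate together by number (0.129 to 0.619). With a replicate block, 8 members were called for ATEV (1440 genes), 10 for NTEV (343 genes) and 0 for DNase-treated ATEV (1 gene); the added members were Gapdh and Egln3, and Egln3 and P4ha2. Of the 6 libraries compared, 0 for ATEV, 2 for NTEV and 3 for DNase-treated ATEV against PBS correlated best with the library of their own number. For genes with few counts, such as Adm after NTEV with 21 counts in all, depth limits the precision of the fold change.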
